A study of Mus musculus with 2 samples.

Results

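Bile duct epithelial cells, or cholangiocytes, line the ducts of the liver, and they share surface and nuclear markers with the progenitor cells that appear in injured liver. Of these markers, 7 genes were followed here: the transcription factor gene Sox9, the RNA-binding protein gene Bicc1, the secreted glycoprotein gene Spp1 (osteopontin) and the cell surface genes Epcam, Alcam (CD166), Prom1 (CD133) and Cd24a. Members were all non-control probes whose gene name on the array was 1 of these 7, which gave 8 probes of 39429 and 17 spots of 43020. Prom1 had 2 probes, each of the other 6 genes had 1, and the Sox9 probe was printed 10 times. The 7 genes had no common direction. Compared with wild-type liver, the library labelled Snail lay 2-fold or more above it in Bicc1 and Sox9 signal and 2-fold or more below it in Alcam and Prom1 signal. Spp1 and Cd24a differed by less than 2-fold, and Epcam lay below the background call on both arrays.

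Total RNA of liver was hybridised to Agilent 1-colour arrays with the dye Cy3. Both livers came from the C57BL/6 strain; 1 was wild-type, the other had the genotype Alb-Cre;CAG-floxed neo-Snail, and each had 1 array. The albumin promoter drives Cre in hepatocytes, and the floxed neo cassette separates the CAG promoter from Snail until Cre removes it. Snail is a zinc-finger repressor of epithelial genes. As background, albumin is also expressed in the fetal hepatoblasts from which both hepatocytes and bile duct cells form. The labels do not give age, sex or diet, or say whether tumour tissue was sampled. The study is titled for steatohepatitis and liver tumours under enforced Snail, and its design compares the expression of all genes between the livers.

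SOX9 marks the embryonic ductal plate and adult ducts, and it is also switched on in hepatocytes that take on ductal features after injury. Notch signalling and the transcriptional coactivator YAP both favour the ductal fate. EPCAM is present on bile duct cells and on many progenitor cells but absent from mature hepatocytes. Osteopontin, ALCAM and CD24 are not exclusive to ducts: macrophages, stellate cells, mesothelium, B cells and red cell precursors can carry one or another of them.

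The probes that carry the results are shown 5′ to 3′ as the array files give them, because every value below rests on hybridisation to these few bases. Coordinates are mm9, the build named in the file headers, and no exon, intron or UTR assignment of the probes was used here. The Alcam and Epcam probes map to 1878 and 829 bases of genome although each holds 60 bases, so both cross a splice junction. The Alcam probe lies on chromosome 16 from 52268908 to 52270785 (minus strand), the Epcam probe on chromosome 17 from 88048972 to 88049800 (plus strand) and the Spp1 probe on chromosome 5 from 104868502 to 104868561 (plus strand). The first Prom1 probe lies on chromosome 5 from 44397410 to 44397469 (minus strand). These 4 are printed whole.
Alcam: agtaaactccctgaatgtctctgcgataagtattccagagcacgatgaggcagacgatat
Epcam: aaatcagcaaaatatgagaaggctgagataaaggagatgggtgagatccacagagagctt
Spp1: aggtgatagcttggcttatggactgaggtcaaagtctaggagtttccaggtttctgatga
Prom1, first probe: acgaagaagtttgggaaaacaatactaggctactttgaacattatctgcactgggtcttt

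Of the second Prom1 probe, on chromosome 5 from 44384861 to 44384920 (minus strand), the last 30 bases are given, with AATAAA, the hexamer of many polyadenylation sites, in capitals. It lies 12489 bases from the first in the direction of transcription, and none of its 3 reading frames is free of stop codons. The last 30 bases are also given of the Bicc1 probe, on chromosome 10 from 70387850 to 70387909 (minus strand), of the Sox9 probe, on chromosome 11 from 112648809 to 112648868 (plus strand), and of the Cd24a probe, on chromosome 10 from 43303706 to 43303765 (plus strand).
Prom1, second probe: gagatttaaAATAAAgcatgaatgaacaga
Bicc1: gtgttgatttcgtacctgtacttcatggcc
Sox9: catctttcgatttctgtataaaaacagacc
Cd24a: cttgatatacacataccttctaaaacctag

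Values are processed signals in scanner units and scaled signals, that is, the processed signal divided by the 75th percentile of non-control spots on its array. That percentile was 232.7 for wild-type liver and 302.1 for the library labelled Snail, and the scanner software called 50.7% and 54.0% of these spots well above background. Log2 differences are scaled signals, the library labelled Snail minus wild-type. With 1 array in each group there is no replicate check and no test, and a fold of at least 2 is a rule of size. The error given after a signal is the scanner software's own estimate for the spot and holds no difference between animals. Probes printed repeatedly gave a further measure of array noise: the median SD of the log2 difference over spots of 1 probe was 0.19 for signals under 100, 0.07 from 100 to 1000 and 0.04 over 1000. Snai1 itself did not mark the second library. Its single probe had signals of 23.2 and 22.3, a log2 difference of -0.44, and the labels do not say whether the transgene holds its target, so the text speaks of the library labelled Snail.

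Of the 7 genes, 6 were measured on both arrays; 2 passed the 2-fold rule upwards and 2 downwards. Of all 15447 genes measured on both arrays, 3.97% passed it upwards, 6.34% downwards and 10.3% either way. The median log2 difference of the 6 genes was 0.58, with a range from -2.61 to 3.48, and that of all measured genes was -0.03. The median falls between genes that lie far apart on both sides, so it describes none of them. In whole tissue, fewer cells of a type and less RNA per cell cannot be told apart, which holds for every value here.

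**Figure D1:**
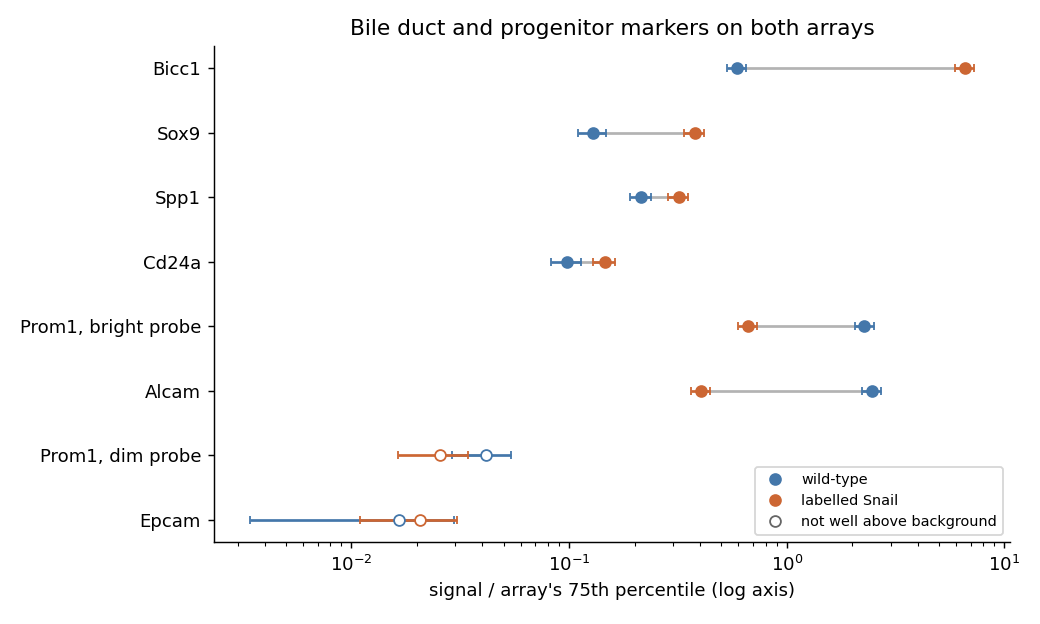
Scaled signal (signal divided by the array's 75th percentile, log axis) of each of the 8 probes for wild-type liver (blue) and the library labelled Snail (orange), with bars for the scanner software's error estimate. Open points mark probes not well above background. Bicc1 and Sox9 lie to the right on the array labelled Snail, Alcam and the bright Prom1 probe to the left, and the error bars of Epcam overlap.

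Bicc1 encodes an RNA-binding protein with KH and SAM domains, whose loss in mice gives cystic kidneys and bile ducts. Its probe had a signal of 137 ± 14.1 (scanner error) in wild-type liver and 1994 ± 199 in the library labelled Snail. The scaled signals were 0.590 and 6.60, a log2 difference of 3.48, or 11.2-fold higher. Bicc1 was thus below the array's 75th percentile in wild-type liver and well above it in the other. The difference was 49.7 times 0.07, the median SD over spots of repeated probes with signals from 100 to 1000. The Bicc1 probe itself had 1 spot on each array, and its brighter signal lay above that range. Among 19046 probes measured on both arrays it ranked at position 38 from the highest difference, so that 0.194% of probes had a higher one. With normexp, another background correction that models background and signal together, the Bicc1 difference was 3.07.

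Sox9 encodes the transcription factor of the ductal plate named above. Its 10 spots had signals from 25.6 to 37.2 in wild-type liver, with a median of 28.7, and from 100.8 to 123 in the library labelled Snail, with a median of 115.7. The lowest spot of the second array was brighter than the highest of the first, and no scaled value of one array fell within the range of the other. The mean log2 difference was 1.55 ± 0.14 (SD over 10 spots of 1 pair of arrays), or 2.92-fold higher, and single spots gave from 1.31 to 1.70. Repeated spots are not replicate animals. The mean wild-type signal was not far above the lowest signal called well above background on that array, 13.8, so the fold rests on a dim value. With normexp, which adds an offset of 50 to every signal and so weighs most on dim ones, the Sox9 difference was 0.64 and no longer 2-fold.

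**Figure D2:**
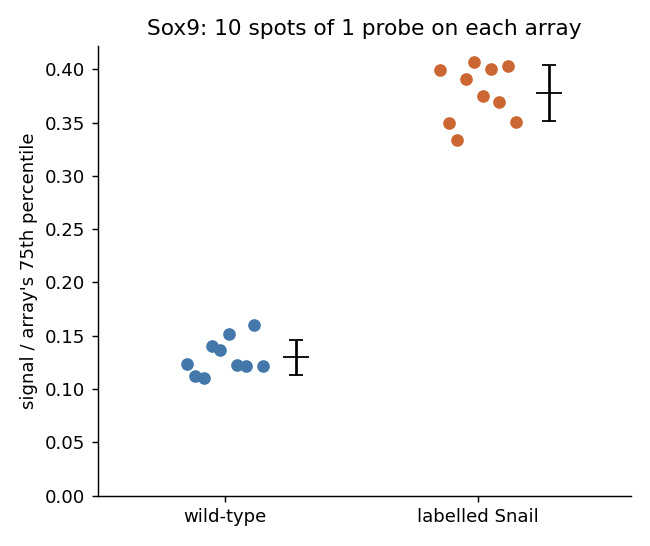
Scaled signal of the 10 spots of the Sox9 probe for wild-type liver (blue) and the library labelled Snail (orange), with the mean and SD over spots in black. The spots measure array noise, not animals, and the 2 sets do not overlap.

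Alcam encodes an immunoglobulin-family adhesion molecule of epithelia and leukocytes that binds CD6 on T cells. Its signal was 572 ± 57.3 (scanner error) in wild-type liver and 122 ± 12.5 in the library labelled Snail. The scaled signals were 2.46 and 0.404, a log2 difference of -2.61, or 6.09-fold lower. Among all measured probes, 0.877% had a lower difference than Alcam, and the 2 signals lay far outside each other's scanner error. With normexp the Alcam difference was -2.09.

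Prom1 encodes prominin-1, a membrane protein of cell protrusions and of many stem and progenitor cells. Its probes did not give 1 picture. The second probe, which holds the AATAAA hexamer, had a signal of 530 ± 53.1 (scanner error) in wild-type liver and 202 ± 20.3 in the library labelled Snail. Scaled signals were 2.28 and 0.667, a log2 difference of -1.77, or 3.42-fold lower. The first Prom1 probe was below the background call on both arrays, with signals of 9.67 ± 2.91 and 7.67 ± 2.75. The Prom1 value therefore rests on 1 of 2 probes, and the probes measure different stretches of the gene. Without a filter on dim probes, where the first probe enters at the floors of both arrays, the Prom1 difference was -1.12.

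Spp1 encodes osteopontin, a secreted ligand of integrins and CD44 made by bile duct cells and by activated macrophages. Its signal was 49.8 ± 5.68 (scanner error) and 96.4 ± 9.99, which is 0.214 and 0.319 after scaling. The log2 difference was 0.58, or 1.49-fold higher, and 10.1% of all measured probes had a higher one. Cd24a encodes a small glycosylphosphatidylinositol-anchored protein of duct and progenitor cells, B cells and red cell precursors. Its signal was 22.8 ± 3.62 and 44.0 ± 5.17, which is 0.0978 and 0.146 after scaling, again a log2 difference of 0.58 and 1.49-fold. Both genes lay 3.06 times the SD of repeated dim spots from 0 and short of the 2-fold rule. With normexp the Spp1 difference was 0.25 and that of Cd24a was -0.04, so the direction of Cd24a turned with the background step.

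Epcam encodes the adhesion molecule that is widely used to isolate bile duct and progenitor cells. Its signal was 3.83 ± 3.04 (scanner error) in wild-type liver and 6.25 ± 2.94 in the library labelled Snail. The lowest signals called well above background were 13.8 and 12.9 on these arrays, so both Epcam values lie below them and no fold is given. A low level of Epcam was not detectable at this signal, which does not show that the RNA was absent.

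**Figure D3:**
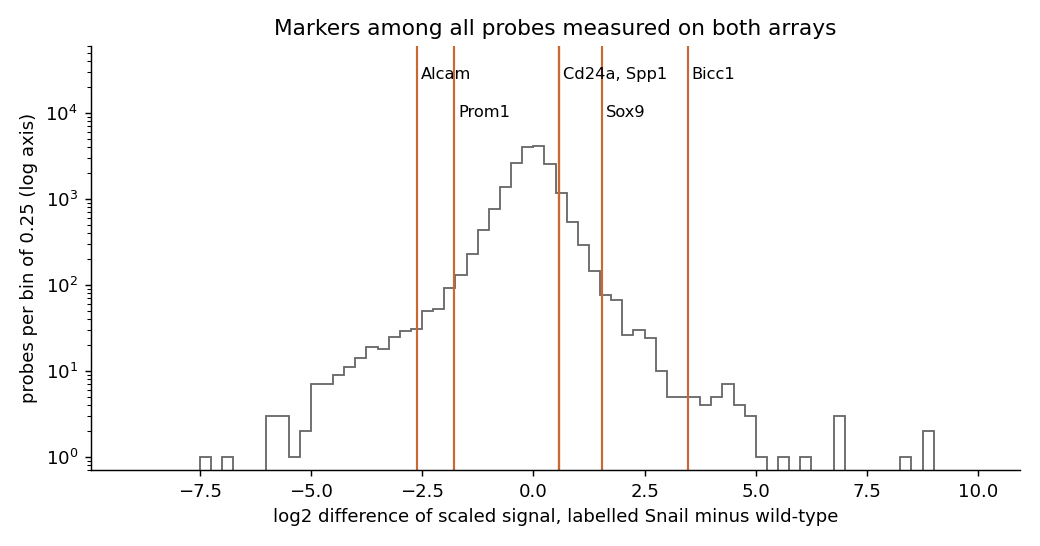
Number of probes (log axis) by log2 difference of scaled signal, the library labelled Snail minus wild-type, in bins of 0.25 over the 19046 probes measured on both arrays. Orange lines mark the 6 measured genes. Bicc1 stands in the sparse upper tail, Alcam and Prom1 in the lower tail, and Spp1 and Cd24a share 1 position inside the main body.

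A list of 35 other bile duct and progenitor genes, chosen for their use as markers in liver, was read the same way. On both arrays 14 were measured, and 16 were not well above background on either. Of the 14, 2 passed the 2-fold rule upwards and 2 downwards, 5 lay above 0 and 9 below, and the median was -0.32 against -0.03 over all genes. Adding the genes with a bound only gave a median of -0.29.

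The defining duct keratins Krt7 and Krt19 were not well above background on either array, with signals of 2.91 and 4.63 for Krt7 and of 12.1 and 9.15 for Krt19. Krt23, a keratin of injured liver and ducts, was 3.92-fold higher, with signals of 364 and 1855 and a log2 difference of 1.97. Lamb3, which encodes a laminin chain of epithelial basement membranes, was 2.59-fold higher, with signals of 50.05 and 169. Its difference was 1.38, and 0.76 with normexp.

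The list's widest gap was that of Anxa13, an annexin of intestinal and kidney epithelium. It had a signal of 3.91 in wild-type liver, not well above background, and 2010 in the library labelled Snail, which gives at least 112.1-fold higher when the wild-type array's lowest signal above the background call stands in for the dim value. The bound was 24.9-fold with normexp. In the other direction Lgr5, a WNT target that marks progenitors after injury and pericentral hepatocytes in normal liver, had signals of 67.9 in the wild-type and 12.7, below the background call, in the library labelled Snail, which gives at least 6.83-fold lower. With normexp, Lgr5 was 2.17-fold lower by its observed signals.

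Slc10a2, the bile acid uptake transporter of duct cells and ileum, was 2.45-fold lower, with signals of 269 and 142.5. Onecut1, which encodes a factor of early duct formation that is also a hepatocyte factor, was 2.15-fold lower, with signals of 241 and 145. With normexp these differences were -0.98 and -0.84, both short of 2-fold. The osteopontin receptor gene Cd44 had a log2 difference of 0.76, from 2 of its 4 probes. Sox4, a partner of Sox9 in duct formation, had one of 0.87, from 1 of its 3 probes. With normexp these were 0.48 for Cd44 and 0.40 for Sox4, and without a filter 0.14 and 0.46.

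**Figure D4:**
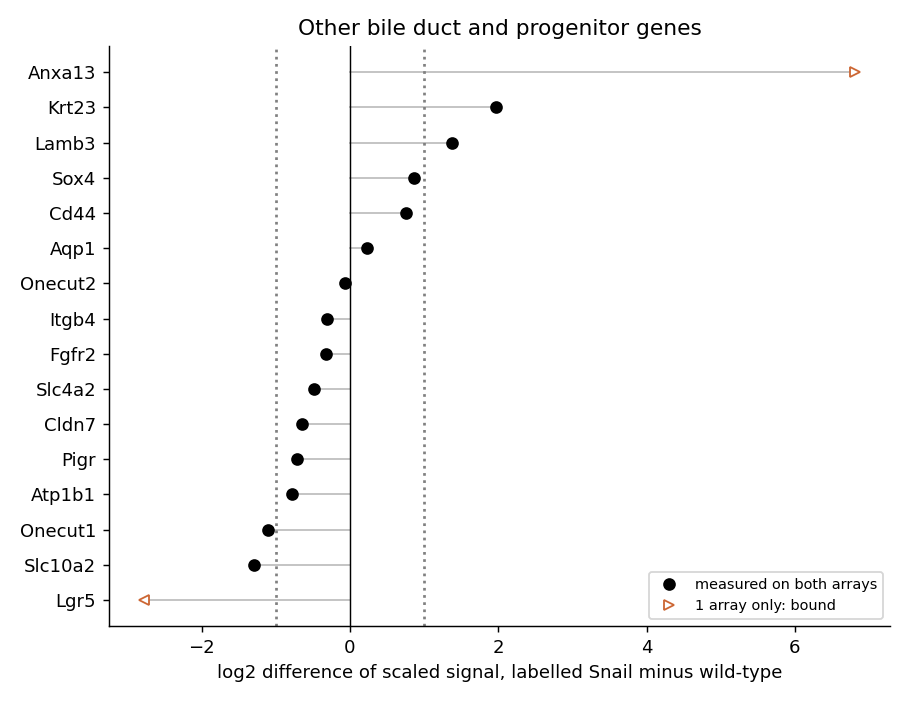
Log2 difference of scaled signal, the library labelled Snail minus wild-type, for the 14 other bile duct and progenitor genes measured on both arrays (black) and for Anxa13 and Lgr5, seen on 1 array, at their bounds (open triangles). Dotted lines mark 2-fold; Krt23 and Lamb3 lie above them, Slc10a2 and Onecut1 below.

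Of the pathways that favour the ductal fate, Notch genes were within 2-fold: of 14 measured of 19, 0 were 2-fold apart in either direction, with a median of -0.02. The ligand gene Dll1 had the widest difference at 0.96, which was 1.03 with the percentile over spots well above background and 0.38 with normexp, while the receptor Notch1 had -0.42, the duct ligand Jag1 0.00, the receptor Notch2 -0.22 and the target Hes1 -0.05. Hey1, a Notch target, had signals of 6.13, below the background call, in the wild-type and 36.4 in the library labelled Snail, at least 2.03-fold higher. That bound was 1.94-fold with quantile or median scaling and 1.11-fold with normexp.

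In the YAP and TEAD list 3 of 16 measured genes passed the 2-fold rule upwards and 0 downwards, with a median of 0.28. Tead2, a DNA-binding partner of YAP, was 4.14-fold higher with signals of 22.3 and 120. Ctgf, a classical YAP target, was 3.15-fold higher, and Wwtr1, which encodes the YAP relative TAZ, 2.12-fold. With normexp these log2 differences were 0.85 for Tead2, 0.81 for Ctgf and 0.47 for Wwtr1, none of them 2-fold. Yap1 itself, at -0.17, and the target Cyr61, at -0.51, lay on the other side of 0.

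BICC1 acts with proteins of the primary cilium, and genes of cilia and polycystic disease were listed with it. Of 16 measured, 1 passed the 2-fold rule upwards and 2 downwards, with a median of 0.27. Cys1, mutated in a cystic kidney mouse strain, was 2.15-fold higher, and the cilium genes Bbs4 and Tmem67 were 2.06-fold and 2.04-fold lower. Their differences were 0.58, -0.59 and -0.55 with normexp, and Bbs4 and Tmem67 were short of 2-fold, at -0.97 and -0.95, with the percentile over spots well above background. Pkd1 and Pkd2, which encode the polycystins, had differences of 0.52 and 0.65, and the BICC1 partner gene Anks3 0.66 (0.03 with normexp), with Anks6 below background on both arrays. None of the 16 was as far apart as Bicc1.

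Receptors of osteopontin were within 2-fold, with 0 of 9 measured genes past it in either direction and a median of 0.22. The widest were the integrin genes Itga5, at 0.99, which was 1.07 with the percentile over spots well above background and 0.36 with normexp, and Itgb3, at -0.82. Of 9 genes for binding partners of EPCAM, ALCAM, CD24 and prominin-1, 3 were measured. The ALCAM ligand gene Cd6 had a difference of 0.83, which was 0.18 without a filter and turned to -0.005 with normexp. The EPCAM partner Cldn7 had -0.65 and the cell adhesion gene L1cam -0.24.

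Markers of other liver cells are given beside the 7 genes. All 15 hepatocyte markers were measured, so the labelled tissue held them on both arrays. At the 75th percentile scaling all 15 had differences below 0, with a median of -0.55, and 3 passed the 2-fold rule downwards. With quantile normalization or the deposited table, 5 of the 15 lay above 0, the medians were -0.09 and -0.11, and 2 passed the rule. Alb had a difference of -0.63, which turned to 0.045 in both of these settings. Cyp2e1 had -1.27, and -0.92 and -0.96 in them, short of 2-fold. Ttr had -0.94, Tat -1.33 and Apoa1 -3.04, and Ass1, at -0.08, was also above 0 with normexp, at 0.02. The summed scaled signals of this list were 5909 and 4025.

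Macrophages also make osteopontin. Of 10 measured macrophage and Kupffer cell markers 1, Marco, passed the 2-fold rule upwards, at 2.83-fold, and 0 downwards. The median was 0.14, and summed scaled signals were 91.8 and 114.5. The general macrophage marker Adgre1 (Emr1 on the array) had a difference of 0.00, Clec4f 0.15, Cd5l 0.13 and the lipid-associated macrophage gene Trem2 0.88. Gpnmb was at least 1.66-fold higher.

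B cells and red cell precursors carry CD24. Of 4 measured B cell markers 1, Ms4a1, passed the 2-fold rule upwards, at 2.37-fold; its difference of 1.25 was 0.38 with normexp, which left 0 past the rule. Cd79a and Cd79b had differences of -0.77 and 0.48. Pax5, Blk and Fcer2a were below background on both arrays. Summed scaled signals were 1.42 and 1.85. Of 6 measured erythroid markers 0 were 2-fold apart, with a median of -0.16 and sums of 58.6 and 55.2, and Ahsp, Rhag and Epb4.2 were below background. Neutrophil markers had a median of 0.92 over 5 genes and sums of 3.47 and 7.35. Of the 5, 2 passed the 2-fold rule upwards, S100a8 at 3.96-fold and S100a9 at 2.96-fold, and 0 downwards. Ly6g had a difference of 0.92, Elane 0.10 and Camp -0.11. Ngp and Ltf were below background on both arrays, and Mpo and Cxcr2 were above it only in the library labelled Snail.

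Stellate cells and mesothelium can carry ALCAM. Of 10 measured stellate cell and fibroblast markers 2 passed the 2-fold rule downwards, Lum at 3.07-fold and Lrat at 2.01-fold, and 1, Col1a1, was 2.50-fold higher. Col3a1 also lay above 0, at 0.95, and 8 of the 10 lay below 0. With normexp Lrat was at -0.64 and Col1a1 at 0.74, both short of 2-fold, and Lrat was at -0.93 with the percentile over spots well above background. Their median was -0.79, with summed scaled signals of 12.2 and 8.17, and Des and Dpt were below background on both arrays. Of the mesothelial list, Upk3b, Upk1b, Lrrn4, Wt1 and Gpm6a were below background on both arrays, Msln had a difference of -0.47, and the sums of 133.7 and 102.6 came mostly from the keratins Krt8 and Krt18, which hepatocytes also express. Endothelial markers had a median of 0.05 over 9 genes, and sums of 50.3 and 47.3. Only Lyve1 passed the 2-fold rule, at 3.98-fold higher, a difference of 1.99 that was 1.32 with normexp. The other 8 were within 2-fold, and of all 9 genes 6 lay above 0 and 3 below.

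Proliferation markers had the median farthest from 0 of these lists, at 2.23. Of 7 measured, 5 passed the 2-fold rule upwards, among them Cdc20 at 9.03-fold, a difference of 3.17. The list was not uniform: Pcna had a difference of -0.31 and Mcm2 one of 0.12, and Top2a was below background on both arrays. With normexp 3 of 7 passed and the median was 0.91; Mki67, at 0.88, and Ube2c, at 0.91, did not, and Cdc20 was at 1.97. Plk1 and Ccnb1 were below the background call in wild-type liver and were at least 9.33-fold and 7.36-fold higher. With normexp Plk1 was 2.41-fold higher by its observed signals and the bound of Ccnb1 was 2.32-fold, and without a filter Ccnb1 was 1.79-fold higher. Their summed scaled signals were 4.79 and 8.21. The part of any of these cell types, or of dividing cells, in the values of the 7 genes was not tested.

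**Figure D5:**
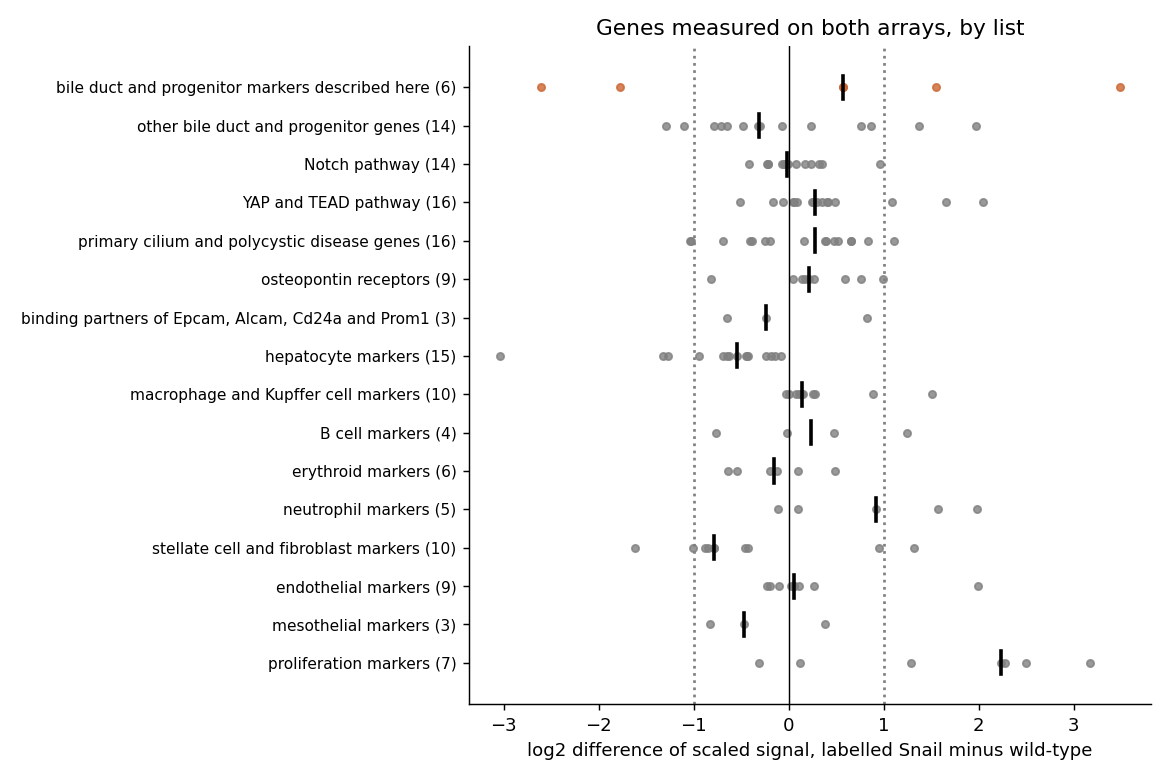
Log2 difference of scaled signal, the library labelled Snail minus wild-type, of each gene measured on both arrays, by list, with the number of measured genes in parentheses and the median as a black bar. The 6 measured bile duct and progenitor markers (orange) range from -2.61 to 3.48, while the 15 hepatocyte markers lie below 0 at this scaling, 5 of them above 0 with quantile normalization.

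Snail represses genes through E-boxes, so the 250 bases before each start site in RefSeq (GRCm38.p6) were searched for CACCTG, or CAGGTG when read on the other strand. Of all 32851 windows, 17.2% held it. The table had 6 windows for 4 of the 7 genes, Alcam, Epcam, Prom1 and Spp1, and 4 of the 6 windows held a match. Prom1 and Spp1 had 2 windows each, and each of these 4 genes had a match in 1 window. The match began 40 bases before the start in Alcam, 222 in Prom1, 98 in Spp1, and 187 and 19 in Epcam. Of these genes Alcam and Prom1 were lower, Spp1 was within 2-fold and Epcam had no value. Bicc1, Sox9 and Cd24a had no window, so the genes that were 2-fold higher could not be searched. A match of letters is a description, not a bound site. The windows of Alcam (chromosome 16 from 52453082 to 52453331, minus strand), Prom1 (chromosome 5 from 44101737 to 44101986, minus strand) and Spp1 (chromosome 5 from 104434861 to 104435110, plus strand) are given with the match in capitals, to set the genes with lower values beside one within 2-fold.
Alcam: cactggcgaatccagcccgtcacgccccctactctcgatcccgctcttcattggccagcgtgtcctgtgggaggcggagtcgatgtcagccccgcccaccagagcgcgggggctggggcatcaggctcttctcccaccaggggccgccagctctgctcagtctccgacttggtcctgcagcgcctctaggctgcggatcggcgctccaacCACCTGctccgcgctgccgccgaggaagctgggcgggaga
Prom1: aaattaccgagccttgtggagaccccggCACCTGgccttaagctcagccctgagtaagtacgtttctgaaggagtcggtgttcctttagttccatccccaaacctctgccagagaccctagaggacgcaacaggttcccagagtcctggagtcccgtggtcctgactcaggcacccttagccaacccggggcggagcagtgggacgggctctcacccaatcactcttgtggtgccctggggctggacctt
Spp1: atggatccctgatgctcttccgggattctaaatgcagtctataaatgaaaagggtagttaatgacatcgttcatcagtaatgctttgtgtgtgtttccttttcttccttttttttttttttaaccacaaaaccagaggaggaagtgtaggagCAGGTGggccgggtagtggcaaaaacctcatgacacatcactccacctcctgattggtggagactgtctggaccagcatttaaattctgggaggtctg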

How the data were processed

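For each array the authors deposited 1 scanner file; the submitters' processing notes name Agilent Feature Extraction 9.5.1.1. Per the file headers, its intensity values had local background subtracted and spatial trends removed array by array. Also used were the scanner software's error estimates and its yes-or-no calls. Normexp alone started from each spot's mean signal and local background median instead of the processed signal. Its values therefore differ from the others in more than the background model. The authors also deposited a table of intensity values with medians of 17.3 on both arrays; it is linear, and how it was scaled or centred is unknown. Each column followed its own array (correlation 1.00 for both).

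Processed signals were divided by the array's 75th percentile and log2-transformed (Python 3.11.15, numpy 2.4.6, pandas 2.3.3), leaving out controls and 287 outlier spots. Saturated spots numbered 0. Repeated spots, then probes well above background on both arrays, were averaged. A gene seen on 1 array has a bound: the bright scaled signal over the dim array's lowest signal above the background call, or over the probe's own where that is higher; where the own signal is higher, the ratio is observed. Both arrays shared 1 slide and 1 scan. Groups came from the genotype labels. With 1 array per group there was no test; precision is limited by how few arrays there are. The scaling and the 2-fold rule were run on simulated data with known folds set in brighter probes only. The simulated second array was made from the first, with folds well beyond 2-fold and little noise. Calls near 2-fold were therefore not tested. The background filter, the bounds and normexp were not tested in this way.

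Alternatives were normexp (limma 3.58.1, offset 50), quantile and median scaling, the percentile over spots well above background, no filter, a signal of at least 50, the brightest probe, the deposited table, outliers kept and naming by accession. Genes named are the 7, then by size of difference up to 4 of each duct or pathway list and up to 3 of each other list, with the first 4 of the latter, Krt7, Krt19, Krt23, Cd44 and Snai1; some genes that the rule names are not reported here, and other genes named were chosen after their values were seen. Older array symbols were matched through RefSeq synonyms. The 7 genes and the lists were chosen with earlier results of these data known. With 2 arrays no likeness of pattern between genes can be measured.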

Additional observations from a re-analysis of the deposited data

Results flagged for a closer look

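A signal lay in a probe outside the 7 genes' own probes. A transcript listed on the array only as ENSMUST00000099633 has a probe on chromosome 10 from 70385795 to 70385854 (mm9, minus strand), 1995 bases beyond the Bicc1 probe in the direction of Bicc1 transcription. Its signals were 24.9 in wild-type liver and 497 in the library labelled Snail, both well above background, a log2 difference of 3.94, or 15.4-fold higher. With normexp it was 2.53. Whether this probe reports a Bicc1 transcript was not tested. The other probe within 10000 bases, ENSMUST00000058942 on the plus strand, lay below the background call on both arrays.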

How the results depend on the processing

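With normexp, 1 of the 7 genes was at least 2-fold higher, Bicc1, and the median log2 difference of measured genes was 0.11. In the list of other duct and progenitor genes 1 was then at least 2-fold higher and 0 lower. With a signal of at least 50 required on both arrays, Sox9, Spp1 and Cd24a had no value, 1 gene was at least 2-fold higher and the median was -1.77. By construction the first setting compresses dim signals and the second removes them. Over all 10 alternatives Bicc1 lay between 3.07 and 3.56, Alcam between -2.67 and -2.09 and Prom1 between -1.84 and -1.12. Of 145 gene values 16 moved by over 1.5-fold with normexp, 5 without a filter, 1 with quantile normalization and 1 with the deposited table. No value past the 2-fold rule changed sign; smaller values did, such as Alb and Cd24a. Of all 15447 genes measured on both arrays, 297 passed the 2-fold rule upwards and 572 downwards with normexp, against 613 and 979 with processed signals. With signals of at least 50 required, fewer genes were measured, and 365 and 728 of 12260 passed. No paired analysis was possible because each group holds 1 array, and no array could be left out. Signals near background limit Sox9, Cd24a and Epcam.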
